A study of Rattus norvegicus and Mus musculus with 12 samples.

Results

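IL-1β is an inducer of osteoarthritis-like changes in cultured chondrocytes. The 10 genes described here encode subunits, inhibitors and nuclear regulators of NF-κB, the transcription factor that answers inflammatory cytokines such as IL-1β. They were chosen by name in the rat and mouse count tables, as Nfkb1, Nfkb2, Rela, Relb, Nfkbia, Nfkbie, Nfkbiz, Tnfaip3, Bcl3 and Zc3h12a. All 10 were present once among the 19687 rat genes and once among the 28603 mouse genes. All 10 had enough counts to be tested in both species. The RNA-seq libraries came from articular chondrocytes of newborn SD rats and C57BL/6 mice at the first passage. There were 3 libraries in each of 4 groups. In the rat model group (RM) and the mouse model group (MM), the chondrocytes had received 20 ng/ml IL-1β for 24 h, and in the rat control group (RC) and the mouse control group (MC) they had not. The strain labels of the mouse libraries run from C57BL/6 to C57BL/8 in MC and from C57BL/7 to C57BL/9 in MM, while the methods of the study name C57BL/6 for all mice, so strain was not used. The methods call the samples of a group independent, but the sources do not say whether they came from separate animals or cultures, so P values measure the spread between these libraries.

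In resting cells, NF-κB dimers are held in the cytoplasm by IκB proteins. IL-1 receptor signalling activates the IκB kinases, IκBα is degraded, and dimers such as p50 with RelA enter the nucleus. Among the genes that they induce are those of their own precursors and inhibitors, so the pathway carries negative feedback. In chondrocytes, the same dimers drive genes of cytokines and of matrix-degrading enzymes.

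In rat, 9 of the 10 genes were upregulated in RM and none was downregulated by edgeR at an adjusted P under 0.05, and Rela was the exception. Over all 13303 rat genes tested, 18.3% were called higher and 16.8% lower. In mouse, all 10 were upregulated in MM, where 37.4% of the 14774 genes tested were called higher and 37.7% lower. The FPKM of all 3 model libraries lay above those of all 3 control libraries for 9 of the 10 genes in rat and for 10 in mouse, against 25.5% and 25.4% of all genes tested. The study sets its own bar for differentially expressed genes, a fold change above 0.85 with P under 0.05 and any library reaching 1 FPKM. Its methods do not say on which scale the fold change is or whether P is adjusted, and the bar was read here as the size of the log2 change and P before adjustment. By these criteria, 7 of 10 were higher in rat, where 4.64% of all genes tested were, and 10 of 10 in mouse, where 12.6% were. Mouse Nfkbie no longer passed them by limma on log2(FPKM + 1) or log2(FPKM + 0.1), where its change was 0.549 and 0.817. The same 7 genes passed in both species, Nfkb1, Relb, Nfkbia, Nfkbiz, Tnfaip3, Bcl3 and Zc3h12a, whereas 1.91% of the 10892 genes shared by symbol did. The median log2 fold change of the 10 genes was 1.65 in rat and 2.62 in mouse, and that of all genes tested was 0.0052 in rat and -0.016 in mouse.

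The proximal promoters were read because binding of NF-κB to promoters of its own inhibitors is known to carry this feedback. RefSeq (build GRCr8) gave 300 bases for 9 of the 10 rat genes, from 250 bases before the start of the gene to 50 bases after it, and no entry was matched for Relb. A 10-base κB consensus, the general form of the NF-κB binding site, was searched on both strands. It was found in 7 of the 9 promoters, and in 4.18% of all 33469 rat promoters of the same length. The promoters of the 3 feedback genes described most closely are printed first, followed by the 2 without a match, those of Rela and Zc3h12a. Capitals mark the letters that match the κB consensus on either strand.
Nfkbiz (chr11:58251471-58251770, + strand): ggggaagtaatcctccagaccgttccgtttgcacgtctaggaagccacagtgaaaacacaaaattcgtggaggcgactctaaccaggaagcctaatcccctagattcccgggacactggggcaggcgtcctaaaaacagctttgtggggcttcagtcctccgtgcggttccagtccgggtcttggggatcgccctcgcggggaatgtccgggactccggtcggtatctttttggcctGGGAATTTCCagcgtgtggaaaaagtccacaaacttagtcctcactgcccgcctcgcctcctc
Nfkbia (chr6:78597023-78597322, - strand): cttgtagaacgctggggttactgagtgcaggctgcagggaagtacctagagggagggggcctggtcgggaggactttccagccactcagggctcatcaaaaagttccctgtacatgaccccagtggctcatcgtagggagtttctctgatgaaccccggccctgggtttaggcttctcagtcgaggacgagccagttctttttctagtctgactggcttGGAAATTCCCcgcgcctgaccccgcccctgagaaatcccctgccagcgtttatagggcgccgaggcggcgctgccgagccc
Tnfaip3 (chr1:15543930-15544229, - strand): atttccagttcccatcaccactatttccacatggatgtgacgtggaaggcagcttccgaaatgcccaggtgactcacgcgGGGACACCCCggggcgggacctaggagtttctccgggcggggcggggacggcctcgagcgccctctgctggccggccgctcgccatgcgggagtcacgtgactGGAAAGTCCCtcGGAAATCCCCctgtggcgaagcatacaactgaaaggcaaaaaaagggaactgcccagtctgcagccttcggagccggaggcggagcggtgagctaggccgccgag
Rela (chr1:212354086-212354385, + strand): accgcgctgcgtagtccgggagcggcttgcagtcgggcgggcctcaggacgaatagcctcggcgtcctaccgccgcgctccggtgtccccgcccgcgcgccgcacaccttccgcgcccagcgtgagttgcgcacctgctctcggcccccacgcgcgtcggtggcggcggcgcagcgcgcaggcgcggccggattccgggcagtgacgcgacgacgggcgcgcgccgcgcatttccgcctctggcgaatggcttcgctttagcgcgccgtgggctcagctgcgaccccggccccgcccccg
Zc3h12a (chr5:142669936-142670235, - strand): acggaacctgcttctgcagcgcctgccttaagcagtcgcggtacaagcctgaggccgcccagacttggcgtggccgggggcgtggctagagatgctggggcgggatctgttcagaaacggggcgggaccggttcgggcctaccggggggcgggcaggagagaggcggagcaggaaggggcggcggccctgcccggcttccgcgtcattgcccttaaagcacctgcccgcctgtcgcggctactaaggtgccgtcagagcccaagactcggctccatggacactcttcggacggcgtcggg
The other 4 are shown as the 30 bases around the match.
Nfkb1 (chr2:226805440-226805469, - strand): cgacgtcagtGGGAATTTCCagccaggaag
Nfkb2 (chr1:255108344-255108373, + strand): tggtattttcGGGACTTTCCtaagagcact
Nfkbie (chr9:22948017-22948046, - strand): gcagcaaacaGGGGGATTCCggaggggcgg
Bcl3 (chr1:88613574-88613603, - strand): tcggcggcagGGGAAGTCCCgcagcccggc
The letters GGGAATTTCC stood in Nfkb1, Nfkbiz and, on the opposite strand, Nfkbia. The letters GGGACTTTCC stood in Nfkb2 and, on the opposite strand, Tnfaip3. The match began 13 bases before the start in Nfkbiz, 20 in Nfkb2, 31 in Nfkbia, 38 in Bcl3 and 164 in Nfkbie, and 3 bases after the start in Nfkb1. Tnfaip3 was the one promoter of the 9 with 3 matches, at 170, 67 and 55 bases before the start. A match describes letters and no binding, and a promoter without one says only that these letters were not in this window. Zc3h12a had no match here and was among the 3 of the 10 genes with the largest folds in both species.

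**Figure D1:**
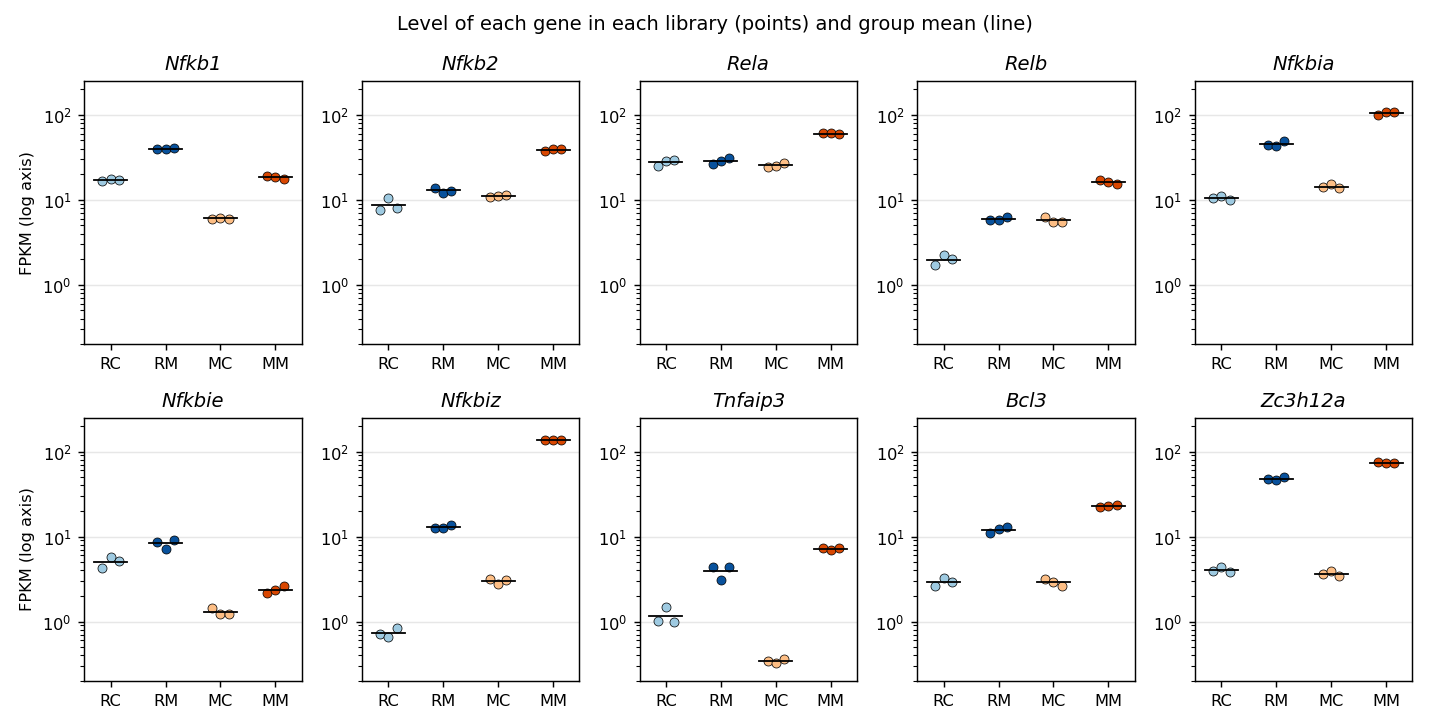
FPKM of the 10 genes on a log axis in the 12 libraries, with 3 points per group and a line at the group mean. The model libraries lie above the control libraries in every panel except rat Rela, where RC spans 25.2 to 29.2 and RM 26.7 to 30.7.

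Levels are given as FPKM, the count per kilobase of gene and scaled to the library total, as the authors deposited them. The 95% intervals and SEs of the changes were derived from the test statistic, and can be too narrow for large folds. Rela, which encodes the transactivating subunit p65, was the most abundant of the 10 genes in both control groups. In rat, its level was 25.2, 28.8 and 29.2 FPKM in RC and 26.7, 28.5 and 30.7 FPKM in RM. The groups overlapped, and the log2 fold change was 0.03 (95% interval -0.16 to 0.22, adjusted P 0.813). The sign of this value turned to -0.05 without RC replicate 1 and to -0.02 without RM replicate 3. In mouse, the level was 24.1, 24.9 and 27.3 FPKM in MC and 60.7, 61.1 and 58.9 FPKM in MM. All 3 MM libraries were above all 3 MC libraries, and Rela rose 2.87-fold (95% interval 2.71 to 3.04, adjusted P 2.78e-41).

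Nfkb1 encodes p105, the precursor of p50. Its level was 16.8, 17.4 and 17.3 FPKM in RC and 39.8, 39.6 and 40.3 FPKM in RM, a rise of 2.3-fold (95% interval 2.08 to 2.55, adjusted P 4.79e-07). The mouse levels were 6.03, 6.12 and 5.97 FPKM in MC and 19.2, 18.6 and 17.8 FPKM in MM, a rise of 3.73-fold (95% interval 3.54 to 3.94, adjusted P 2.32e-48). The replicates of a group differed little beside the gap between groups in both species. Nfkb2 encodes p100, the precursor of p52 in the non-canonical pathway. Its level was 7.63, 10.5 and 8.12 FPKM in RC and 14.0, 11.9 and 12.9 FPKM in RM, so that the highest control and the lowest model library were close. The rise was 1.45-fold (95% interval 1.21 to 1.75, adjusted P 0.00606) and did not reach the log2 fold change of 0.85. In mouse, Nfkb2 was at 10.8, 11.1 and 11.3 FPKM in MC and at 37.3, 39.4 and 39.9 FPKM in MM. This rise was 4.26-fold (95% interval 4 to 4.54, adjusted P 1.63e-46). In the GENCODE M21 annotation, exons of mouse Nfkb2 share 830 bases with genes on the opposite strand, Psd among them. The library kit named in the labels does not mark strand, so counts in these bases are uncertain. The deposited FPKM of mouse Nfkb2 imply a length below that of these exons, so how many of the 830 bases were counted is unknown.

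Relb encodes the partner of p52 in the non-canonical pathway and had the lowest mean level of the 4 subunits in all groups. Its level was 1.69, 2.25 and 1.99 FPKM in RC and 5.72, 5.84 and 6.21 FPKM in RM. The mouse libraries gave 6.32, 5.53 and 5.42 FPKM in MC and 17.0, 16.4 and 15.2 FPKM in MM. The groups were separate in both species. The rise was 2.96-fold in rat (95% interval 2.37 to 3.7, adjusted P 1.97e-05) and 3.42-fold in mouse (95% interval 3.13 to 3.72, adjusted P 2.09e-35). Thus, among these 4 subunits, the one with the largest fold was Relb in rat and Nfkb2 in mouse, and the one with the smallest was Rela in both.

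Of the cytoplasmic inhibitors, Nfkbia encodes IκBα, which is resynthesised after its degradation and ends a round of signalling. Its level was 10.6, 11.2 and 9.84 FPKM in RC and 44.6, 42.7 and 48.9 FPKM in RM. Mouse Nfkbia was at 14.0, 15.2 and 13.9 FPKM in MC and 98.5, 107 and 109 FPKM in MM. Every model library was above every control library, with a rise of 4.25-fold in rat (95% interval 3.71 to 4.86, adjusted P 7.91e-08) and 8.86-fold in mouse (95% interval 8.27 to 9.5, adjusted P 1.10e-54). Nfkbie encodes IκBε, a second cytoplasmic inhibitor. Its level was 4.29, 5.81 and 5.12 FPKM in RC and 8.51, 7.13 and 9.23 FPKM in RM. Mouse Nfkbie was at 1.44, 1.23 and 1.23 FPKM in MC and 2.15, 2.35 and 2.59 FPKM in MM, from 63 to 140 counts per library. Nfkbie had the smallest fold of the 6 inhibitors and nuclear regulators in both species. Its rise was 1.62-fold in rat (95% interval 1.29 to 2.03, adjusted P 0.00464) and 2.2-fold in mouse (95% interval 1.78 to 2.72, adjusted P 9.06e-10).

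Nfkbiz encodes IκBζ, a nuclear IκB protein that is made after stimulation and acts with NF-κB at secondary response genes. It was the least abundant of the 10 genes in RC, at 0.714, 0.659 and 0.842 FPKM, and reached 12.7, 12.7 and 13.7 FPKM in RM. In mouse it rose from 3.14, 2.79 and 3.05 FPKM in MC to 136, 136 and 137 FPKM in MM, where it was the most abundant of the 10. It had the largest fold of the 10 in both species, 17.5 in rat (95% interval 14.8 to 20.7, adjusted P 1.81e-09) and 55.1 in mouse (95% interval 51.9 to 58.5, adjusted P 3.92e-73). Only 0.316% of the rat genes tested and 0.758% of the mouse genes had a larger log2 fold change. Bcl3 encodes the other nuclear IκB protein of the set, which binds p50 and p52 homodimers. Its level was 2.6, 3.22 and 2.92 FPKM in RC and 10.9, 12.2 and 13.1 FPKM in RM. Mouse Bcl3 was at 3.19, 2.93 and 2.59 FPKM in MC and 22.5, 23.0 and 23.2 FPKM in MM. The groups were separate in both species, with a rise of 4.1-fold in rat (95% interval 3.4 to 4.95, adjusted P 8.22e-07) and 9.59-fold in mouse (95% interval 8.62 to 10.7, adjusted P 1.03e-44). Exons of mouse Bcl3 share 161 bases with Gm16175 on the opposite strand.

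Tnfaip3 encodes A20, a ubiquitin-editing enzyme that acts upstream, at the adaptors of the receptor complex. Its level was low, at 1.02, 1.50 and 0.988 FPKM in RC and 4.38, 3.05 and 4.39 FPKM in RM. In mouse it was the least abundant of the 10 genes in MC, at 0.340, 0.329 and 0.362 FPKM from 40 to 47 counts per library, and reached 7.23, 7.03 and 7.28 FPKM in MM. The rise was 3.32-fold in rat (95% interval 2.4 to 4.6, adjusted P 0.000137) and 25.3-fold in mouse (95% interval 22.1 to 28.9, adjusted P 5.08e-48). The rat interval was the widest of the 10 genes on the log2 scale, and RM replicate 2 lay below the other RM libraries. The mouse interval is likely too narrow, since its log2 SE was 0.096 here and 0.145 with DESeq2.

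Zc3h12a encodes Regnase-1, an RNase that cleaves inflammatory mRNAs, those of Nfkbiz and Il6 among them. Its level was 3.94, 4.39 and 3.81 FPKM in RC and 47.3, 46.3 and 50.6 FPKM in RM, where it had the highest mean of the 10 genes. Mouse Zc3h12a was at 3.65, 3.89 and 3.44 FPKM in MC and 75.8, 73.9 and 73.2 FPKM in MM. The separation was wide beside the spread of either group. The rise was 11.7-fold in rat (95% interval 10.3 to 13.4, adjusted P 1.23e-09) and 24.6-fold in mouse (95% interval 22.9 to 26.5, adjusted P 2.35e-62).

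The order of the levels within a library changed with IL-1β. In RC the 10 genes stood, from the highest mean FPKM to the lowest, as Rela, Nfkb1, Nfkbia, Nfkb2, Nfkbie, Zc3h12a, Bcl3, Relb, Tnfaip3 and Nfkbiz, and the ranges of Nfkbia and Nfkb2 and of Nfkbie and Zc3h12a overlapped. In RM the order was Zc3h12a, Nfkbia, Nfkb1, Rela, Nfkbiz, Nfkb2, Bcl3, Nfkbie, Relb and Tnfaip3. There the ranges overlapped between Zc3h12a and Nfkbia, between Nfkbiz and Nfkb2, and between Nfkb2 and Bcl3. In MC the order was Rela, Nfkbia, Nfkb2, Nfkb1, Relb, Zc3h12a, Nfkbiz, Bcl3, Nfkbie and Tnfaip3, with overlap between Nfkb1 and Relb and between Nfkbiz and Bcl3. In MM it was Nfkbiz, Nfkbia, Zc3h12a, Rela, Nfkb2, Bcl3, Nfkb1, Relb, Tnfaip3 and Nfkbie, with no overlap between neighbours. In both model groups, Rela thus no longer had the highest mean level per length, which was that of Zc3h12a in RM and of Nfkbiz in MM. The gene lengths behind the FPKM differ between the species, so levels were not compared between rat and mouse. For example, they were 12061 bases for mouse Nfkb1 and 3866 for rat Nfkb1, or 7226 and 2445 for Tnfaip3. The order within a species rests on these lengths too. Mouse Nfkb2 was divided by 3289 bases and stood above Nfkb1 in FPKM. In counts Nfkb1 was above Nfkb2, at 3780 against 1887 over MC and 12801 against 7286 over MM.

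**Figure D2:**
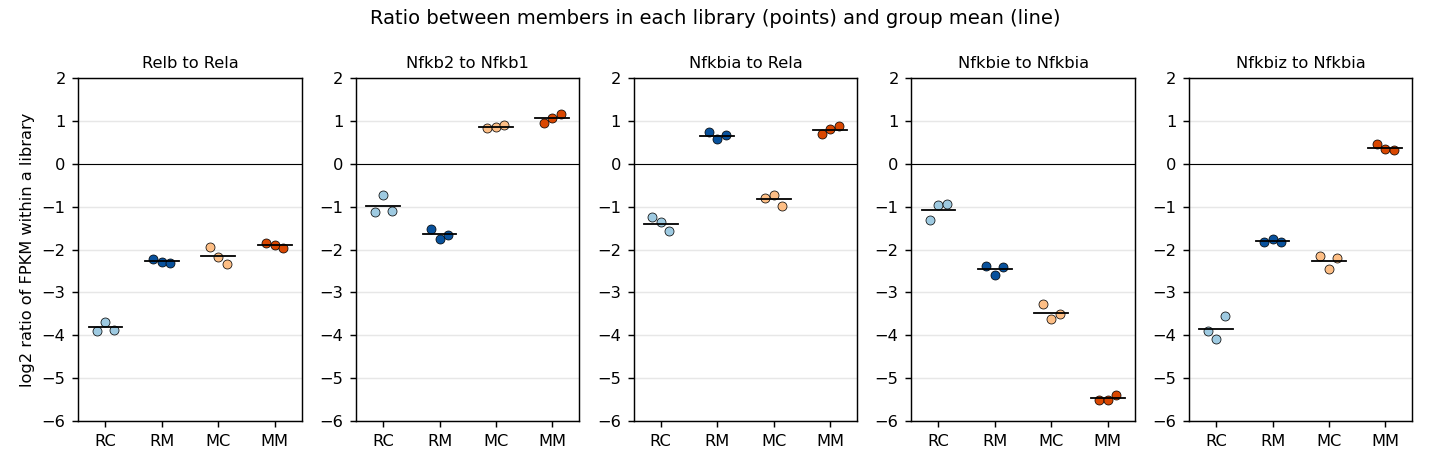
Log2 ratio of the FPKM of 2 genes within each library, with 3 points per group and a line at the group mean. The ratio of Nfkbia to Rela is below 0 in every control library and above 0 in every model library of both species.

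Ratios between genes within a library do not depend on how libraries are scaled, and no test was run on them. Whether a ratio lies above or below 1 depends on the gene lengths used, but its change between the groups of a species does not. The FPKM ratio of Nfkbia to Rela, the inhibitor over the subunit that it binds, was 0.337 to 0.422 in RC and 1.5 to 1.67 in RM. The mouse ratio was 0.509 to 0.608 in MC and 1.62 to 1.85 in MM, so the ratio crossed from below 1 to above 1 in both species. The ratio of Relb to Rela was 0.0671 to 0.0781 in RC and 0.202 to 0.215 in RM, without overlap. In mouse it was 0.198 to 0.263 in MC and 0.258 to 0.279 in MM, and these ranges overlapped. The ratio of Nfkb2 to Nfkb1 was lower in RM than in RC, at 0.3 to 0.351 against 0.455 to 0.605. In mouse it was higher in MM than in MC, at 1.94 to 2.24 against 1.79 to 1.89. The ratio of Nfkbie to Nfkbia was lower in the model group of both species, with means of 0.182 in RM against 0.481 in RC and 0.0225 in MM against 0.0907 in MC. The ratio of Nfkbiz to Nfkbia was higher, with means of 0.288 in RM against 0.0705 in RC and 1.3 in MM against 0.21 in MC. An exact permutation test of such a ratio could not go below a two-sided P of 0.1, since each group has 3 libraries.

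**Figure D3:**
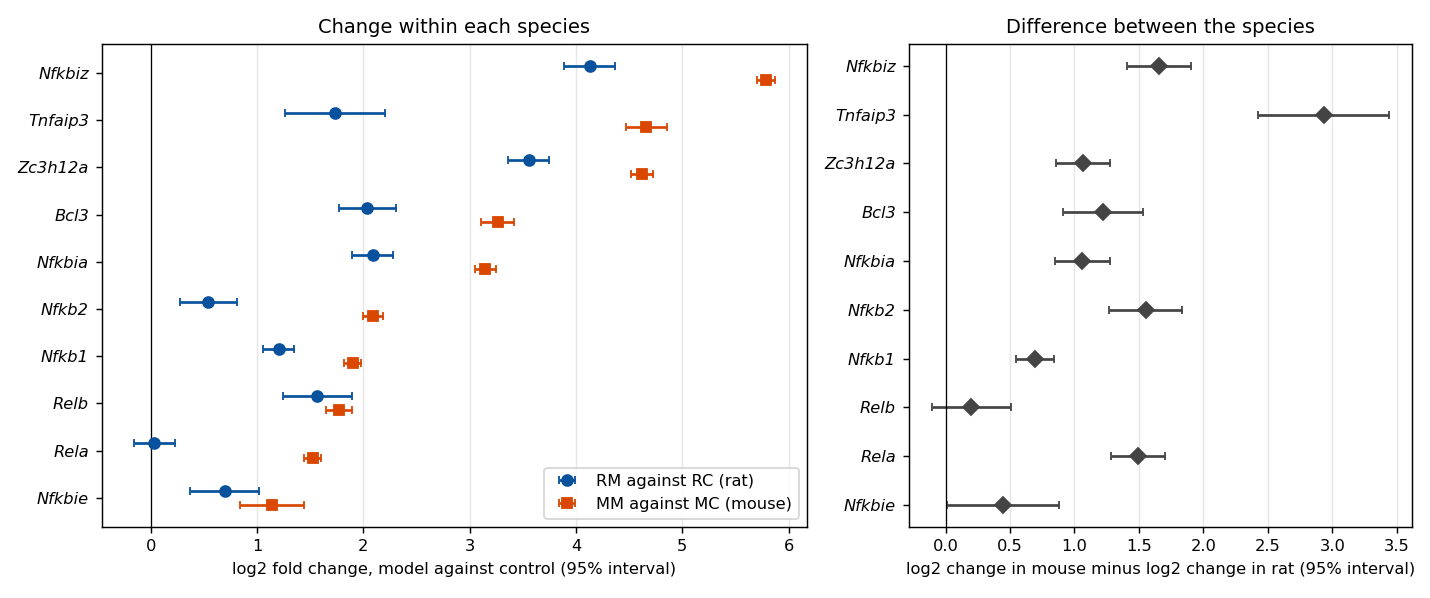
Left, log2 fold change of the model against the control group for each gene, with its 95% interval, in rat (circles) and mouse (squares). Right, log2 change in mouse minus log2 change in rat with its 95% interval, by the edgeR fit, where Tnfaip3 is the largest at 2.93 and the interval of Relb holds 0. With libraries scaled by their size alone the value of Relb is below 0.

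Whether the response differed between the species was tested directly in 1 fit over the 12 libraries, as the log2 change in mouse minus the log2 change in rat. The change was larger in mouse for 8 of the 10 genes and larger in rat for none, against 31.5% of the 10892 shared genes that were called larger in mouse. Larger in mouse means a positive log2 difference with TMM scaling, so this share also counts genes that fell more in rat. The share of the shared genes called larger in rat is not given here. In the edgeR fit Tnfaip3 differed most, by 2.93 on the log2 scale (SE 0.24, adjusted P 1.24e-08). On log2(FPKM + 1) the largest difference was 2.09 for Nfkbiz and that of Tnfaip3 was 1.42. The mean levels of Tnfaip3 in MC, 0.34 FPKM, and of Nfkbiz in RC, 0.738 FPKM, lie below the added 1. On log2(FPKM + 0.1) Tnfaip3 was again the largest, at 2.36 against 1.49 for Nfkbiz. In the edgeR fit Tnfaip3 was followed by Nfkbiz with 1.65 (SE 0.12, adjusted P 1.97e-09), Nfkb2 with 1.55 (SE 0.13, adjusted P 2.41e-08) and Rela with 1.49 (SE 0.10, adjusted P 8.43e-10). The difference was 1.22 for Bcl3, 1.07 for Zc3h12a, 1.06 for Nfkbia and 0.69 for Nfkb1, with adjusted P values from 6.24e-08 to 1.34e-06. For Relb, the difference was 0.20 (95% interval -0.11 to 0.51, adjusted P 0.243), and it was -0.09 with libraries scaled by their size alone. For Nfkbie, it was 0.45 (95% interval 0.014 to 0.88, adjusted P 0.0665). The call for Nfkbie rested on single libraries, since it passed the test without RC replicate 1 (difference 0.58, adjusted P 0.0136) and without RM replicate 3 (difference 0.53, adjusted P 0.0387). The intervals of Relb and Nfkbie leave room for a difference, so these data do not show that the species responded alike for either gene. The rat libraries of a group varied more than the mouse libraries, with a biological coefficient of variation of 0.106 in rat and 0.0318 in mouse.

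The size of the mouse folds depends on the scaling. The TMM factors, which scale libraries by the bulk of their genes, were 1.099 to 1.104 in MC and 0.9052 to 0.9107 in MM, and scaling by library size alone moved the median change over the mouse genes tested from -0.016 to -0.295 on the log2 scale. With library size alone, 25% of all mouse genes tested were called higher and 54.7% lower. The fold of Nfkbiz in mouse was 45.5 as a ratio of mean FPKM and 55.1 in the fit for this reason. All 10 genes stayed upregulated in mouse with either scaling. The difference between the species became 0.40 for Nfkb1 and 0.15 for Nfkbie with library size alone.

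The remaining genes of the family were read beside these 10. Rel, which encodes the subunit c-Rel, was low, at 1.63 to 1.82 FPKM in RC and 2.62 to 2.72 FPKM in RM, and rose by 0.62 on the log2 scale in rat (SE 0.16, adjusted P 0.0133). It was at 1.82 to 2.03 FPKM in MC and 3.51 to 3.74 FPKM in MM, and rose by 1.20 in mouse (SE 0.081, adjusted P 6.25e-21). Nfkbib, which encodes IκBβ, an inhibitor not known for NF-κB-driven resynthesis, was at 12.2 FPKM in RC (SD 0.18, n = 3) and 10.9 FPKM in RM (SD 0.847, n = 3), with a log2 fold change of -0.18 (SE 0.095, adjusted P 0.176). In mouse it was at 6.14 to 7 FPKM in MC and 11.2 to 11.8 FPKM in MM, and rose by 1.09 (SE 0.083, adjusted P 1.29e-18). The change of Nfkbib was larger in mouse by 1.27 (SE 0.12, adjusted P 8.37e-08), so Rela and Nfkbib were both called in mouse and not in rat, and the difference passed for both. Nfkbid, a nuclear IκB gene, had 6 to 24 counts per library in rat and 14 to 46 in mouse, and rose by 1.32 in rat (SE 0.38, adjusted P 0.0227) and 1.37 in mouse (SE 0.30, adjusted P 3.98e-05). In rat, its call was lost with DESeq2 (adjusted P 0.0589). Nfkbil1 was called in neither species, at -0.27 in rat and 0.01 in mouse on the log2 scale.

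**Figure D4:**
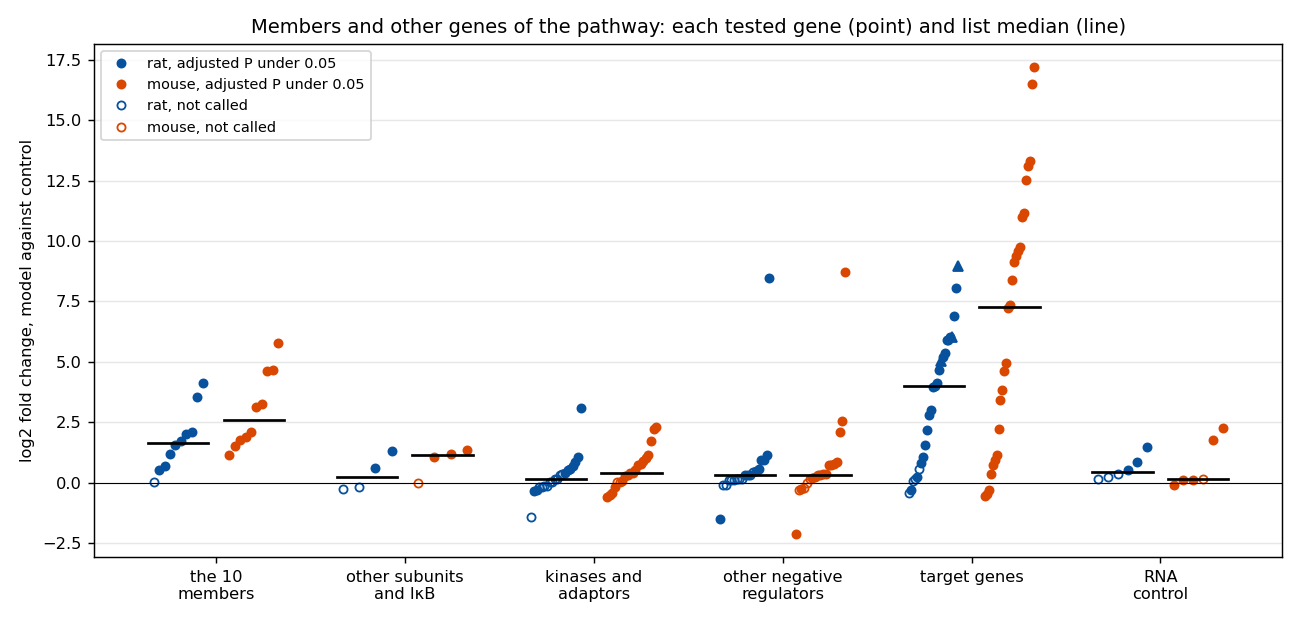
Log2 fold change of every tested gene of each list in rat (blue) and mouse (orange), filled where the adjusted P is under 0.05, with a line at the list median. Triangles mark 3 rat target genes without a control count, drawn at the lower limit that 3 control counts over the group give. The medians of the target genes, 3.99 in rat and 7.29 in mouse, lie above those of the other lists. The lists were written with earlier results of these data known.

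Upstream of the subunits, the list of 20 kinases and adaptors that activate NF-κB had 6 genes higher, 2 lower and 12 not called in rat, with a median log2 fold change of 0.16, where 18.3% of all genes tested were higher and 16.8% lower. In mouse, 14 were higher, 4 lower and 2 not called, with a median of 0.42, where 37.4% of all genes were higher and 37.7% lower. With library size alone, the mouse split became 10 higher and 7 lower, beside 25% and 54.7% of all genes. Map3k8, the kinase Tpl2 that p105 holds inactive, rose by 3.08 on the log2 scale in rat and by 2.21 in mouse. The difference of -0.87 between mouse and rat passed the test (adjusted P 0.000722), and so Map3k8 changed more in rat, unlike the 8 genes above. Traf1, an adaptor at TNF receptors, rose by 1.06 in rat and 2.31 in mouse. Ikbke, an IκB kinase-related kinase, rose by 0.55 and 1.73, and Traf2, another adaptor, by 0.88 and 1.16.

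The list of other negative regulators holds 20 genes. In it, 8 of 19 tested were higher and 1 lower in rat, and 13 of 19 were higher and 2 lower in mouse, with medians of 0.32 and 0.34. Of all genes tested, 18.3% were higher and 16.8% lower in rat, and 37.4% and 37.7% in mouse. With library size alone, the mouse split became 8 higher and 5 lower, beside 25% and 54.7% of all genes. Tnip3, which encodes the A20-binding protein ABIN-3, had 1 count over the 3 control libraries and 497 over the 3 model libraries in rat, a ratio of 486 (exact 95% counting interval 86.8 to 19235). In mouse it had 1 count in MC and 539 in MM, a ratio of 595 (exact 95% counting interval 106 to 23537). Irak3, the inhibitory kinase homologue IRAK-M, rose by 0.95 on the log2 scale in rat and 2.58 in mouse. Pdlim2, a nuclear ubiquitin ligase for p65, was the gene of this list that fell in both species, by 1.49 in rat and 2.12 in mouse (adjusted P 3e-06 and 1.95e-36). Rnf11, a partner of A20, rose by 2.08 in mouse, from 27.0 to 94.2 mean FPKM, and was not analysed here in rat. Among 6 regulators of IκBζ and Regnase-1 RNA control, 3 were higher and none lower in rat, and 4 were higher and 1 lower in mouse, beside the same shares of all genes. The split in mouse became 2 higher and 3 lower with library size alone, where 25% of all genes were higher and 54.7% lower. Arid5a, which protects inflammatory mRNAs from Regnase-1, rose by 0.86 in rat and 1.77 in mouse. Zfp36l1, an mRNA decay factor, rose by 1.49 and 2.26. Malt1, the protease that cleaves A20 and Regnase-1, rose by 0.54 in rat (adjusted P 0.014) and stood at 0.17 in mouse (adjusted P 0.166). Elavl1, an mRNA-stabilising protein, stood at 0.18 on the log2 scale in rat (adjusted P 0.085) and at 0.13 in mouse (adjusted P 0.0172), and the mouse value turned to -0.15 with library size alone (adjusted P 0.00491).

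Downstream, the list of commonly used target genes holds 30 genes, of which 21 of 26 tested were higher and 1 lower in rat, and 23 of 26 were higher and 3 lower in mouse. The shares of all genes tested were 18.3% higher and 16.8% lower in rat, and 37.4% and 37.7% in mouse. In both species, 18 were higher, as were 9.27% of the 10892 shared genes. The list was written with earlier results of these data known. The study had already reported some of its genes as upregulated in both species, Mmp3, Mmp13 and Cxcl2 among them. Its counts are thus no independent readout. Mmp3, which encodes stromelysin-1, rose by 5.92 on the log2 scale in rat and 13.30 in mouse. Cxcl2, a neutrophil chemokine, had 2 counts in RC and 283 in RM, and 1 count in MC and 11168 in MM. Nos2, the inducible nitric oxide synthase, had no count in RC and 202 in RM, and 1 count in MC and 116422 in MM. Saa3, an acute phase gene, had 7 counts in MC and 997796 in MM, and was not analysed here in rat. There were 3 target genes with opposite calls in the species, named here after their values were seen. Birc2 and Csf1 were higher in rat and lower in mouse, with differences of -1.14 and -1.59, and Bcl2l1 was lower in rat and higher in mouse, with a difference of 1.45 (adjusted P 8.36e-07, 1.27e-12 and 4.21e-10). Birc2 encodes the ubiquitin ligase cIAP1, Csf1 a macrophage growth factor and Bcl2l1 the survival protein Bcl-xL.

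The genes whose pattern was closest to 9 of the 10 were found by the Euclidean distance over the 12 libraries of log2(FPKM + 1), centred on the control mean of each species. The 3 nearest to Nfkb1 were Ugdh, Relb and Plat, at 0.311, 0.325 and 0.346. Those nearest to Relb were Nfkb1, Tgm1 and Ttc39c, at 0.325, 0.418 and 0.433, so Nfkb1 and Relb stood near each other. Nfkb2 was closest to Spred2, Pkm and Spidr, at 0.279, 0.284 and 0.357, and Rela to Itpripl2, Psmd8 and Slc2a8, at 0.245, 0.264 and 0.281. Bcl3 was closest to Ackr3, Nfkbia and Junb, at 0.553, 0.612 and 0.745. For Nfkbie the nearest were Ip6k3, Fmnl3 and Abca2, at 0.204, 0.291 and 0.344. Around Nfkbiz they were Mmp13, the collagenase, Egln3 and Dcn, at 0.872, 0.955 and 1.77. Tnfaip3 stood nearest to Gdnf, Ampd3 and Hbegf, at 0.437, 0.455 and 0.465, and Zc3h12a to Upp1, Angptl4 and Ptges, at 1.15, 1.2 and 1.21. A gene that moved little has a small distance to its neighbours, so distances are not comparable between the 10 genes.

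The RNA of every group held chondrocyte markers, though in MM Matn3 had 28 counts and Snorc 15 over the 3 libraries. Beside the marker counts below, 18.3% of all genes tested were called higher and 16.8% lower in rat. In mouse, these shares were 37.4% and 37.7%. All 10 chondrocyte markers, Col2a1 and Acan among them, were detected, and all 10 were lower in the model group of both species, with a summed level of 4149 to 4817 FPKM in RC and 1463 to 1518 in RM, and 2112 to 2157 in MC and 173 to 187 in MM. Fewer cells of a type and less RNA per cell cannot be told apart in such bulk RNA, and the part of this fall in the results for the 10 genes was not tested. Of the 10 macrophage and leukocyte markers, 8 were analysed in rat and 9 in mouse, and they summed to 6.1 to 7.42 FPKM in RC, 8.21 to 12.5 in RM, 4.13 to 5.07 in MC and 8.33 to 9.71 in MM. Most of this was Cd68, at 3.96 FPKM in RC and 7.63 in RM, and 3.52 in MC and 8.23 in MM, which was called higher in both species. Csf1r, a macrophage receptor, was lower in rat, at 0.669 FPKM in RC and 0.295 in RM (log2 fold change -1.20, adjusted P 0.00269), and higher in mouse, at 0.41 in MC and 0.553 in MM (log2 fold change 0.70, adjusted P 0.0087). The split of the tested markers was thus 1 higher and 1 lower of 4 in rat. In mouse it was 2 higher of 2, where 1 was called higher with library size alone. With so few tested markers, these splits say little beside the shares of all genes. Ptprc, a defining leukocyte gene, had 20 counts over RC, 16 over RM, 3 over MC and 1 over MM. The part of these markers in the results was not tested. The 6 fibroblast and synovial markers summed to 1874 to 2054 FPKM in RC, 1939 to 1992 in RM, 481 to 495 in MC and 1462 to 1470 in MM. In rat, where the sum overlapped, 3 of the 6 were higher and 1 lower. Prg4, which encodes lubricin, rose from 8.49 to 476 FPKM, and Col3a1, a collagen gene, fell from 917 to 469 FPKM (log2 fold changes 5.79 and -0.98, adjusted P 1.5e-11 and 1.04e-06). In mouse, 5 of the 6 were higher and Thy1 was lower, from 12.5 to 3.48 FPKM. Among the higher, Dcn rose from 22.9 to 601 FPKM and Pdpn from 75.6 to 413 FPKM. The mouse split became 3 higher and 2 lower with library size alone, where 25% of all genes were higher and 54.7% lower. In both species, the chondrocyte sum lay above the fibroblast and synovial sum in the control group and below it in the model group. The part of these changes in the results of either species was not tested. Endothelial markers summed to under 1 FPKM in every library. Counts per library were 20169272 to 25903459 in rat and 16841580 to 20048322 in mouse.

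In the mouse genome (GRCm38), whose GENCODE M21 exon lengths equalled the lengths behind the deposited FPKM within 1 base for 96.2% of 11689 genes checked, the subunit genes lie as Nfkb1 at chr3:135584655-135691547, Nfkb2 at chr19:46304320-46312385, Rela at chr19:5637483-5648130 and Relb at chr7:19606217-19629438. The genes of the inhibitors and nuclear regulators lie as Nfkbia at chr12:55489410-55492647, Nfkbie at chr17:45555703-45563169 and Nfkbiz at chr16:55811375-55838899. Tnfaip3 lies at chr10:19000910-19015657, Bcl3 at chr7:19808462-19822770 and Zc3h12a at chr4:125118423-125127840. Nfkb2 and Rela share a chromosome, and Bcl3 and Relb lie on the same strand with 179023 bases between them. The implied lengths of mouse Nfkb2 and Rela, 3289 and 2716 bases, were below the merged exon lengths of 4584 and 3072 in this annotation, so their FPKM are relative to the shorter length.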

How the data were processed

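RNA-seq libraries of rat and mouse chondrocytes, 3 per group, were grouped by their treatment labels. For each species, the authors deposited counts of reads per Ensembl gene, whole numbers without normalization, and FPKM, in which the count is divided by gene length and by the total of the library. The submitters' processing notes name HISAT2, HTSeq 0.11.2, GRCm38 and Rnor_6.0, without their roles. Whether counting used strand is not given in the sources used here. Total counts were 20169272 to 25903459 per library in rat and 16841580 to 20048322 in mouse. They limit precision most for genes with under 100 counts, and counting intervals cover counting error only.

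The quasi-likelihood test of edgeR 4.0.16 in R 4.3.3 was run on the counts (filterByExpr, TMM, glmQLFit and glmQLFTest), separately in rat and mouse. Adjusted P values are those of Benjamini and Hochberg over every gene in the fit. The SEs and 95% intervals were formed from the log2 change and its test statistic, and are approximate. For large folds they can be too narrow. The SE of the mouse Tnfaip3 change was 0.096 in this way and 0.145 with DESeq2. The difference between the species was tested as an interaction over the 10892 genes that share a symbol and passed the filter in both, with TMM factors set within each species. Alternatives were DESeq2 1.42.0, limma 3.58.1 on log2(FPKM + 1) and log2(FPKM + 0.1), other scalings and filters, a replicate block and leaving out each library. Ratios were formed from FPKM within a library. The edgeR fits were tested on simulated data in which 200 genes per species changed by 1.5 on the log2 scale. They recovered 96.5% of these in rat and 99.5% in mouse, and 97.28% of the differences between species. Of the calls, 6.311% were false in rat, 3.865% in mouse and 5.015% for the difference. Far fewer genes changed there than were called in the mouse data, so the simulation does not check the scaling. Replicates of a group differed by more than sampling noise. The chi-square per gene between libraries of a group was 6.07 to 27.8 in rat and lower in mouse, at 1.902 to 2.484. Promoters are those of RefSeq for GRCr8.

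The 10 genes, the gene lists and the cell type markers were chosen with earlier results of these data known. Named beside the 10 were Rel, Nfkbib and Nfkbid, the 4 genes of each other list with the largest log2 fold change in either species among those with an adjusted P under 0.05 and 1 FPKM or more on average in a group, the 3 genes of nearest pattern (not reported here for Nfkbia), and genes that bear on the reading of a member.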

Additional observations from a re-analysis of the deposited data

Results flagged for a closer look

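The change differed between the species by the test of the difference itself for 8 of the 10 genes, with 31.5% of all shared genes called larger in mouse. The log2 change in mouse minus the log2 change in rat was 0.694 for Nfkb1, 1.55 for Nfkb2, 1.49 for Rela, 1.06 for Nfkbia, 1.65 for Nfkbiz, 2.93 for Tnfaip3, 1.22 for Bcl3 and 1.07 for Zc3h12a. Rela is the one gene of these that was not called in rat. The 3 libraries per group are too few to test for a single library that stands apart.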

How the results depend on the processing

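At an adjusted P under 0.05, the count of genes called higher stayed at 10 in mouse under all alternatives run. In rat it was 9 without each library in turn and 7 to 9 otherwise, the 7 being those past a log2 fold change of 0.85 or of 1. The count larger in mouse was 8 to 9 without each library in turn and 8 otherwise. Among the 10 genes, signs that turned belong to values that were not called: Rela in rat (-0.05068 without RC replicate 1, -0.01913 without RM replicate 3, in a range of -0.05068 to 0.08033 without each library in turn), the difference for Relb (-0.09379 with library size alone, -0.06673 with log2(FPKM + 0.1)) and the difference for Nfkbie (-0.06648 with log2(FPKM + 1), with or without the filter on FPKM). The cause was not tested. Of the genes beside them, Elavl1 in mouse was called on both sides, at 0.13 and, with library size alone, -0.15. On log2(FPKM + 1), the difference was 1.42 for Tnfaip3, 0.30 for Nfkb1 and 2.09 for Nfkbiz. On log2(FPKM + 0.1), it was 2.36 for Tnfaip3 and 1.49 for Nfkbiz. With library size alone, it was 2.64 for Tnfaip3 and 1.36 for Nfkbiz. None of these 3 settings carries a TMM factor. For Nfkb1 it was 0.39 on log2(FPKM + 0.1) and 0.40 with library size alone. Mouse Nfkbie missed the log2 change of 0.85 by limma. Low counts, as for mouse Nfkbie, limit precision.

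Replicate numbers recur in each group, but same-numbered libraries did not deviate together (correlations of -0.0977 to 0.0849 in rat and 0.00124 to 0.0149 in mouse), so the numbers were not taken to pair libraries. With the replicate number as a block, 9 genes were higher in rat, 10 in mouse, and 8 changed more in mouse. The block changed no call among the 10 genes.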
